A study of Mus musculus with 8 samples.

Results

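Transcripts of purine nucleoside transport and catabolism were followed in the ileum of wild-type mice and of mice in which Slc51a is inactivated. The members were every probe set whose only gene symbol in the platform annotation was 1 of 9 names: Slc28a1, Slc28a2, Slc29a1, Enpp3, Nt5e, Ada, Adk, Gda and Xdh. Of these names 7 were measured, by 17 of the 45037 probe sets that are not controls, and they make up 7 of the 17097 genes represented on the array. Slc28a1 and Xdh had no such probe set in the table used and were not analysed here. The gene names were selected on the knockout minus wild type differences of these same arrays as well as on function, so the members' differences are given as a description, with no test.

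Both groups were adult male mice on a C57BL/6 background, about 2 months old and fasted for 4 h, with 4 ileum samples per genotype labelled as biological replicates and 1 array each. Slc51a encodes a subunit of the transporter that carries bile acids out of the enterocyte across the basolateral membrane, and the labels give no further detail of the allele. Values are RMA signals on the log2 scale, where a difference of 1 is a doubling, and every difference is knockout minus wild type with its standard error (SE, n = 4 per genotype). The Slc51a signal was 11.29 to 11.41 in wild type and 4.50 to 4.68 in the knockout. The defining ileal genes Fabp6 and Slc10a2 were bright in both genotypes, with means of 13.11 and 11.42 in wild type and 13.18 and 10.97 in the knockout. The median signal of the 8 arrays lay between 4.56 and 4.60, and the mean of 9 hybridization control probe sets was 9.48 in wild type and 9.45 in the knockout (2-sided exact permutation p = 0.514). The 3' minus 5' difference of the Gapdh control probe sets, a sign of RNA quality, was 0.25 in wild type and 0.13 in the knockout (exact p = 0.0571, the smallest possible being 0.0286), and that of the actin probe sets 0.41 and 0.44 (exact p = 0.314); their part in the results was not tested. The number of arrays limits the precision.

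Purine nucleosides reach the enterocyte from digested nucleic acids in the lumen and from nucleotides released by cells. On the cell surface Enpp3 and Nt5e (CD73) take nucleotides down to adenosine, and the concentrative transporter Slc28a2 (CNT2) and the equilibrative transporter Slc29a1 (ENT1) carry nucleosides across the membrane. Inside the cell Ada deaminates adenosine to inosine, Adk instead phosphorylates it to AMP, Pnp releases the base, Gda deaminates guanine to xanthine, and Xdh oxidises hypoxanthine and xanthine to urate. Several of these genes are known as genes of mature enterocytes on the upper villus.

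The promoter windows of Slc28a2, Ada and Nt5e are shown because these members had the largest differences between the genotypes. They were read from RefSeq sequence of mouse build GRCm38.p6, which held windows for 8 of the 9 member names, and run from 250 bases before an annotated start to 50 bases after it. Capitals mark matches, on either strand, to the motifs searched. Positions below count from 0 at the start of the transcript.
Slc28a2, chr2:122426185-122426484, plus strand: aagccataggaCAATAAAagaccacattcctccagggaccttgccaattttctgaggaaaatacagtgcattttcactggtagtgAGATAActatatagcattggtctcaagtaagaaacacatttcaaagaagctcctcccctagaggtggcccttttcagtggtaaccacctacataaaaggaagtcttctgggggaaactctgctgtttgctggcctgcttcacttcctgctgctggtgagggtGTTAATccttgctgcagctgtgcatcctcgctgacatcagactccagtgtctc
Ada, chr2:163750190-163750489, minus strand: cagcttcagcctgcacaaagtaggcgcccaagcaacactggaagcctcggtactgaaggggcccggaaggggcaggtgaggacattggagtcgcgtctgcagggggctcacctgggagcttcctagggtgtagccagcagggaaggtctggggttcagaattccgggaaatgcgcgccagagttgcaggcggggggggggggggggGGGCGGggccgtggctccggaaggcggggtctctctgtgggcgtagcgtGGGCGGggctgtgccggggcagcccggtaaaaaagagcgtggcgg
Nt5e, chr9:88327359-88327658, plus strand: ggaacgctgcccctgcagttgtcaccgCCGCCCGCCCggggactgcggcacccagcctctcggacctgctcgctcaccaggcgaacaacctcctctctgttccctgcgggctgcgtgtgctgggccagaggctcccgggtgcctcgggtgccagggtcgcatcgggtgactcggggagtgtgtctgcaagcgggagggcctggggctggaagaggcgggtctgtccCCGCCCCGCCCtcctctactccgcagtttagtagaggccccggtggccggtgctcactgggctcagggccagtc

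The windows of these members were unlike each other in base composition. That of Slc28a2 was 46.7% G and C with 1 CpG, below the median of 52.7% and 7 CpG over 32851 RefSeq windows of the same length. The windows of Ada and Nt5e were 68.0% and 71.0% G and C, with 20 and 23 CpG. The motifs searched were the HNF4 site CAAAGTCCA, the GATA site AGATAA, the CDX site TTTATNG, the HNF1 core GTTAAT, the antioxidant response element TGACNNNGC, the interferon-stimulated response element, the E box CACGTG, the TATA box TATAAA and the GC box GGGCGG. The Slc28a2 window held 1 GATA match at -165, 1 CDX match at -239 on the opposite strand and 1 HNF1 core spanning the start. These motifs were found in 11.2%, 10.9% and 7.1% of all windows. The Ada window held 2 GC boxes, at -44 and 5, and that of Nt5e held 4, in overlapping pairs on the opposite strand. GC boxes were found in 35.7% of all windows, and no match to the other motifs was found in the Ada and Nt5e windows. The Gda window held none of the 9 motifs and that of Enpp3 held 1 TATA match at -209 on the opposite strand. These matches describe the letters of a short window and say nothing of which factors act there.

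All 7 measured members had a lower mean in the knockout, by up to 4.05 on the log2 scale, although the difference of Slc29a1, -0.01, changed sign under other normalisations. For 5 of the 7 the samples of the genotypes did not overlap, all 5 lower, where 30.7% of all genes tested did not overlap, 12.8% of them lower. The median difference of the members was -0.58 against 0.01 over all genes. Since the knockout minus wild type difference was in view when the members were named, nothing is read from these counts. By the size of the difference the members fell into 3 kinds. Slc28a2, Ada and Nt5e were lower by more than 1, which 0.871% of all genes were. Gda and Enpp3 were lower by 0.58 and 0.38, and Adk and Slc29a1 had overlapping samples.

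**Figure D1:**
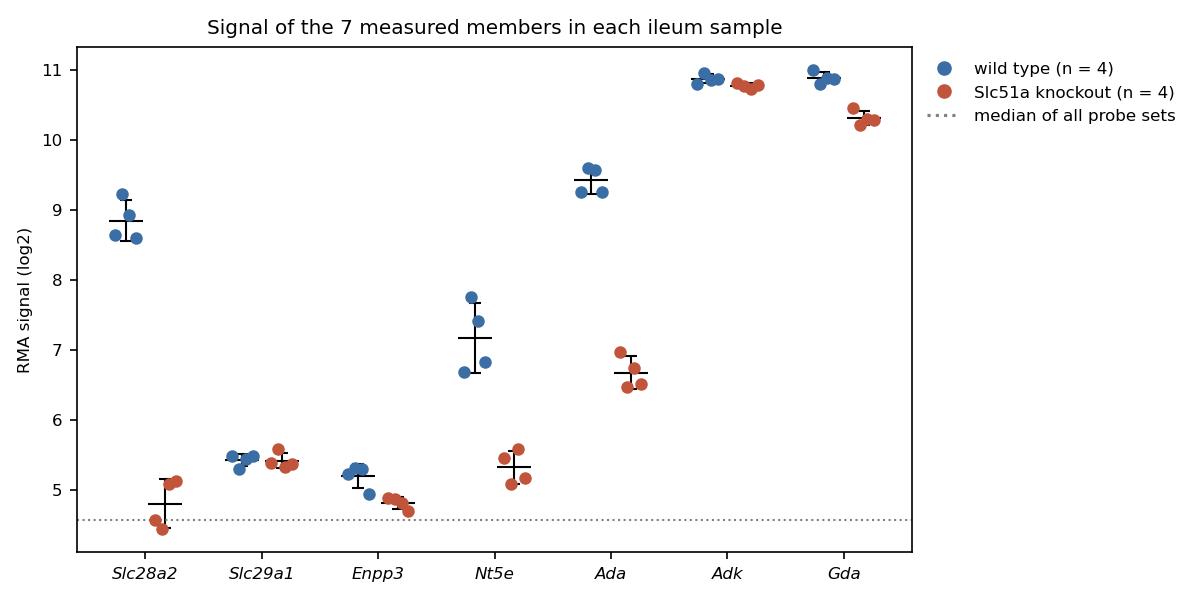
RMA signal (log2, vertical axis) of the brightest probe set of each measured member in every ileum sample, 4 wild type (blue) and 4 Slc51a knockout (red), with the mean and SD as black bars and the median of all probe sets, 4.58, as a dotted line. Genotypes are to be compared within a gene, not levels between genes: the groups lie far apart for Slc28a2, Nt5e and Ada, close but apart for Enpp3 and Gda, and overlap for Slc29a1 and Adk.

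Slc28a2, the sodium-coupled transporter that takes purine nucleosides and uridine into the cell, had the largest difference of the members. Its signal was 8.65, 9.23, 8.93 and 8.61 in the wild-type samples and 4.57, 4.44, 5.09 and 5.13 in the knockout samples. Every knockout sample lay at least 3.48 below the lowest wild-type sample. The means were 8.85 ± 0.29 (SD, n = 4) and 4.81 ± 0.35, a difference of -4.05 (SE 0.17), or 16.5-fold lower. By size it ranked 3 among the falls of the 17097 genes. The knockout mean lay at percentile 54.9 of all probe sets, near the median of 4.58 where low signals are compressed, so the difference may be understated. Slc28a2 has a neighbour of the same family on chromosome 2, Slc28a2b, which had no probe set under its own symbol, so how far the signal of the Slc28a2 probe set is shared with it is not known here.

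Slc29a1, the transporter that lets nucleosides pass down their gradient, did not follow Slc28a2. It was read by a single probe set of fairly low signal, at percentile 63.8 in wild type, so a difference may be understated. Its signal was 5.49, 5.30, 5.45 and 5.49 in wild type and 5.40, 5.59, 5.33 and 5.38 in the knockout. The knockout samples held both the highest and nearly the lowest value, and the groups overlapped. The means were 5.43 ± 0.09 (SD, n = 4) and 5.42 ± 0.11, a difference of -0.01 (SE 0.07) whose sign turned with cyclic loess (0.01), median centring (0.01) and quantile normalisation (0.03).

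The ectoenzyme Nt5e, which makes adenosine from extracellular AMP, was the third member by size of difference. Its brightest probe set read 6.69, 7.76, 7.42 and 6.83 in wild type and 5.46, 5.09, 5.59 and 5.18 in the knockout. All knockout samples lay below all wild-type samples, by at least 1.11, and the wild-type samples were widely spread. The means were 7.18 ± 0.50 (SD, n = 4) and 5.33 ± 0.24, a difference of -1.85 (SE 0.21), or 3.60-fold lower. The other probe sets of Nt5e were dimmer and read little of this. One, at 4.94 in wild type, differed by -0.18 (SE 0.05) without overlap, and the other, dimmer than the median probe set in both genotypes, differed by 0.08 (SE 0.06). Averaged over its probe sets the Nt5e difference was -0.65.

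Enpp3, a surface enzyme that cleaves nucleoside triphosphates to monophosphates, had dim signals and small differences. Its brightest probe set read 5.22, 5.32, 5.30 and 4.95 in wild type and 4.89, 4.87, 4.81 and 4.70 in the knockout. The groups stood apart by only 0.06, between wild type 4 and knockout 1. The difference was -0.38 (SE 0.08), or 1.30-fold lower. A further Enpp3 probe set, at 4.99 in wild type, differed by -0.37 (SE 0.09) without overlap. The remaining pair were dimmer than the median probe set in both genotypes and differed by -0.05 and -0.0003, and averaged over the 4 probe sets the difference was -0.20.

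Ada, the deaminase that turns adenosine into inosine, had 1 probe set. It read 9.27, 9.60, 9.58 and 9.26 in wild type and 6.98, 6.48, 6.74 and 6.52 in the knockout. Every knockout sample was lower than every wild-type sample, by at least 2.28. The means were 9.43 ± 0.19 (SD, n = 4) and 6.68 ± 0.23, a difference of -2.74 (SE 0.12), or 6.70-fold lower, rank 12 among the falls of all genes. Unlike that of Slc28a2, the knockout mean of Ada stayed well above the median signal, at percentile 76.8 of all probe sets.

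Adk, the kinase that competes with Ada for adenosine by returning it to AMP, kept nearly the same signal. Its brightest probe set read 10.81, 10.96, 10.86 and 10.88 in wild type and 10.82, 10.77, 10.74 and 10.79 in the knockout. The groups overlapped, with wild type 1 inside the range of the knockout samples. The difference was -0.10 (SE 0.05) for that probe set and 0.02 (SE 0.05), -0.10 (SE 0.06) and -0.05 (SE 0.06) for the other 3, all of which overlapped too. With cyclic loess the Adk difference was -0.19. The identifier of the brightest probe set marks possible binding to other transcripts.

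Gda, which deaminates guanine to xanthine, was lower by a modest amount that its 3 probe sets shared. The brightest read 11.00, 10.81, 10.89 and 10.87 in wild type and 10.45, 10.22, 10.30 and 10.28 in the knockout. No knockout sample reached the lowest wild-type sample, the gap being 0.36. The difference was -0.58 (SE 0.06), or 1.49-fold lower, and those of the other probe sets were -0.59 (SE 0.06) and -0.53 (SE 0.08), also without overlap. These probe sets share a target and are not independent replicates. In all, 9 of the 17 member probe sets had groups that did not overlap, where 23.8% of all probe sets did not.

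**Figure D2:**
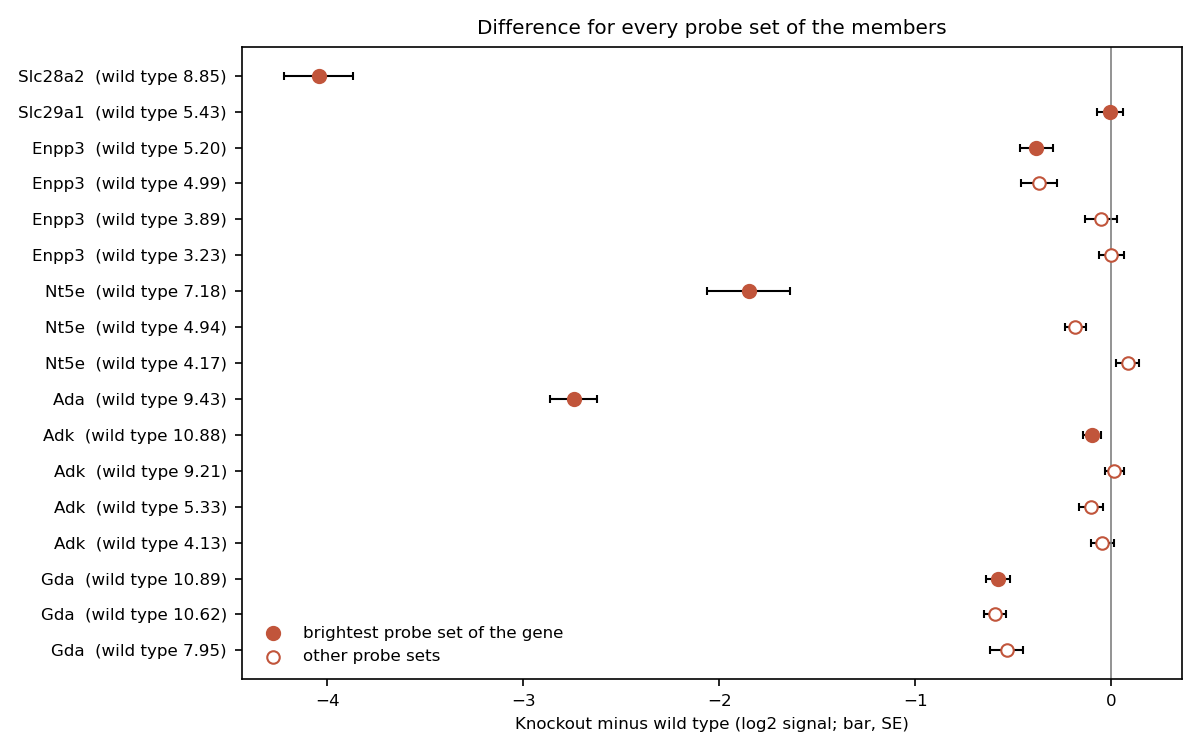
Knockout minus wild type difference (log2 signal, horizontal axis, bars are the SE, n = 4 per genotype) for each of the 17 member probe sets, ordered by gene and, within a gene, by wild-type mean, which is given in the row label. Filled points are the brightest probe set of a gene and open points the others: the 3 probe sets of Gda lie together near -0.58, while the other probe sets of Nt5e lie at -0.18 and 0.08 and those of Enpp3 between -0.37 and 0.

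Within each genotype the members with large differences were also the most spread between animals. The SD of Slc28a2 was at percentile 98.9 of all genes in wild type and 99.3 in the knockout, that of Ada at 95.7 and 96.9, and that of Nt5e at 99.7 and 97.1. Enpp3 was at 94.3 and 49.0, and Adk, Slc29a1 and Gda lay between percentiles 8.34 and 69.8. Among the wild-type samples, Slc28a2, Nt5e and Ada were each highest in wild type 2, next in wild type 3, and lower in wild type 1 and 4. In wild type 2 they stood 0.38, 0.59 and 0.18 above their genotype's mean. In wild type 1 to 4 the summed signal of mature enterocyte markers was 41120, 43477, 40636 and 39969, highest in wild type 2 and next in wild type 1. That of villus tip markers was 7014, 8487, 7577 and 7264, or 6157, 6448, 6293 and 6240 without Fos, which was left out after its values were seen. Either way it was highest in wild type 2 and next in wild type 3, as these members were. The summed signal of T lymphocyte markers was 3573, 2858, 2910 and 3407, lowest in wild type 2 and next lowest in wild type 3. Sums of Paneth cell, myeloid cell and fibroblast markers were lowest in wild type 2 too, at 5072, 13235 and 2155. The part of these in the members' order was not tested. Among the knockout samples the highest differed: Ada was highest in knockout 1, Nt5e in knockout 3 and Slc28a2 in knockout 4. Knockout 2 was the lowest of the 4 for Slc28a2, Nt5e, Ada and Gda. In knockout 1 to 4 the mature enterocyte sum was 29959, 28766, 29488 and 27640. The villus tip sum was 5936, 5672, 6204 and 5415, or 5029, 4665, 4648 and 4570 without Fos. These sums were lowest in knockout 4, where Slc28a2 was highest. The T lymphocyte sum was 691, 671, 603 and 877, lowest in knockout 3 and highest in knockout 4. With 4 samples per genotype these orders are descriptions with no test.

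**Figure D3:**
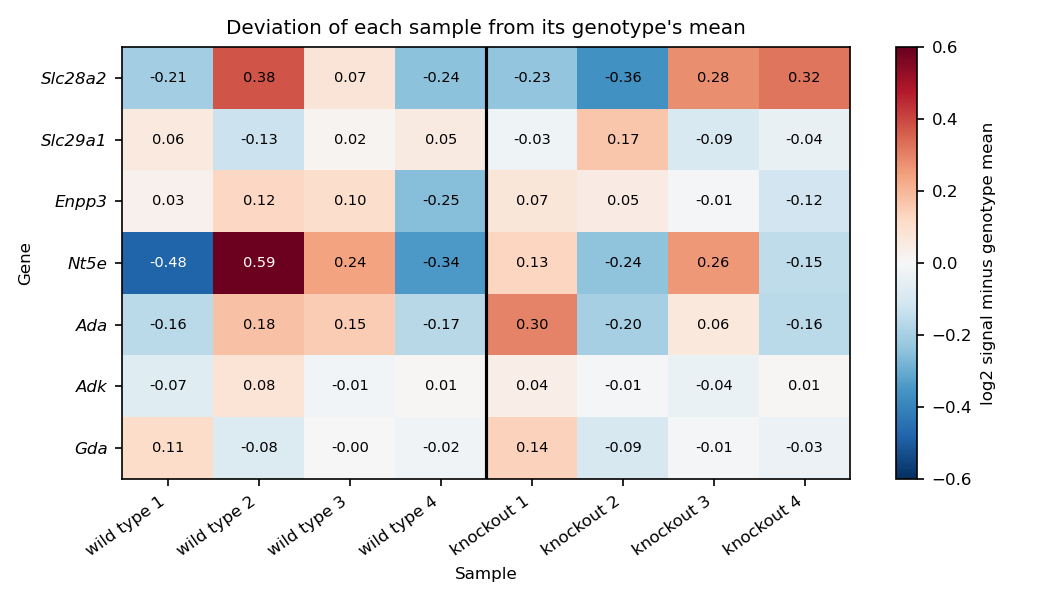
Deviation of each sample from the mean of its own genotype (log2 signal, colour and printed number) for the brightest probe set of each member; rows are genes, columns the 8 samples, and the black line parts the genotypes. In wild type, Slc28a2, Nt5e and Ada are above their mean in samples 2 and 3 and below it in samples 1 and 4, while in the knockout sample 2 is the lowest for all 3 and the highest sample differs.

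Other features of the tissue moved with genotype in the same samples, and in bulk tissue fewer cells of a type and less RNA per cell cannot be told apart. Of 18 mature enterocyte genes, 17 passed the test (limma, adjusted p under 0.05) as lower, and their summed linear signal was 39969 to 43477 in wild type and 27640 to 29959 in the knockout. The differences of these genes ran from -1.61 for the vitamin B12 receptor gene Cubn to -0.08 for Krt20. Slc28a2 and Ada were lower by more than any of them. Nt5e, at -1.85 by its brightest probe set, lay within 2 of its SE of Cubn. Of 7 villus tip markers 6 were lower, with sums of 7014 to 8487 and 5415 to 6204. Of 11 T lymphocyte genes all 11 were lower, with sums of 2858 to 3573 and 603 to 877. Their differences ran from -2.90 for Gzma to -0.20 for Cd8b1, a range that holds those of Ada and Nt5e but not that of Slc28a2. Since the members were named with their differences in view, nothing is read from how they compare with either range. Of 8 smooth muscle genes all 8 were lower, with sums of 7564 to 9911 and 4659 to 5461, and of 10 myeloid genes 5 were lower and 1 higher. Lower genes also made up 3 of 5 for B lymphocytes, 4 of 5 for enteric neurons and glia and 3 of 6 for endothelium. They were 2 of 4 each for goblet cells and stem cells and 2 of 5 for tuft cells. For ileal enterocytes they were 2 of 4, Slc10a2 and Slc51b. Of 7 fibroblast genes 1 was higher and 0 lower, and 0 of 3 Paneth cell and 0 of 4 pancreatic acinus genes passed. Over all genes tested 12.9% were lower and 17.1% higher. Of 6 villus bottom markers 1 was higher and 2 lower. Proliferating crypt genes went the other way, 8 of 9 higher, with sums of 3963 to 4292 and 4978 to 5605. Arrays give no true 0, and of the T lymphocyte genes Cd5 and Cd8b1 were dimmer than the median probe set in both genotypes. So were the lower neuron and glia genes Elavl4, Uchl1 and Snap25, the lower endothelial gene Cdh5 and the higher fibroblast gene Pdgfra. The part of these shifts in the members' differences was not tested.

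The genes whose profile over the 8 arrays lay nearest to that of Slc28a2, by Euclidean distance between profiles centred on each gene's mean among 11092 candidates, were Gcnt1 (distance 1.10), Slc5a12 (1.41), Cyp4v3 (1.41), Ubd (1.59) and ccdc198 (1.66). Gcnt1 is a glycosyltransferase of mucin-type glycans, Slc5a12 a sodium-coupled lactate transporter and Ubd a ubiquitin-like modifier. Nearest to Ada were the deiodinase gene Dio1 (0.78), Tmem140 (0.78), Cyp4v3 (0.85), the guanylate-binding protein gene Gbp8 (0.86) and the brush border phospholipase gene Plb1 (0.88). Cyp4v3 was in both lists. This distance is set mostly by the size of the difference between genotypes, which was -3.16 to -4.44 for the first 5 and -2.60 to -3.22 for the second 5. Averaged over their probe sets, Gcnt1 was at -2.05 and Plb1 at -1.33.

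The rest of nucleotide metabolism did not share one direction. Of 93 measured genes in 9 lists of purine and pyrimidine genes, members left out, 23 rose, 18 fell and 52 did not pass (limma, Benjamini-Hochberg over all genes), with a median difference of 0.02. Over all 17097 genes 30.0% passed, 17.1% higher and 12.9% lower, with a median of 0.01. Among the 93 genes the largest falls were those of Upp1, Slc23a4 and Dpyd, and the largest rises those of Urah, Ahcy and Adsl. With a required fold of at least 1.5 as well, 5 rose and 5 fell.

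**Figure D4:**
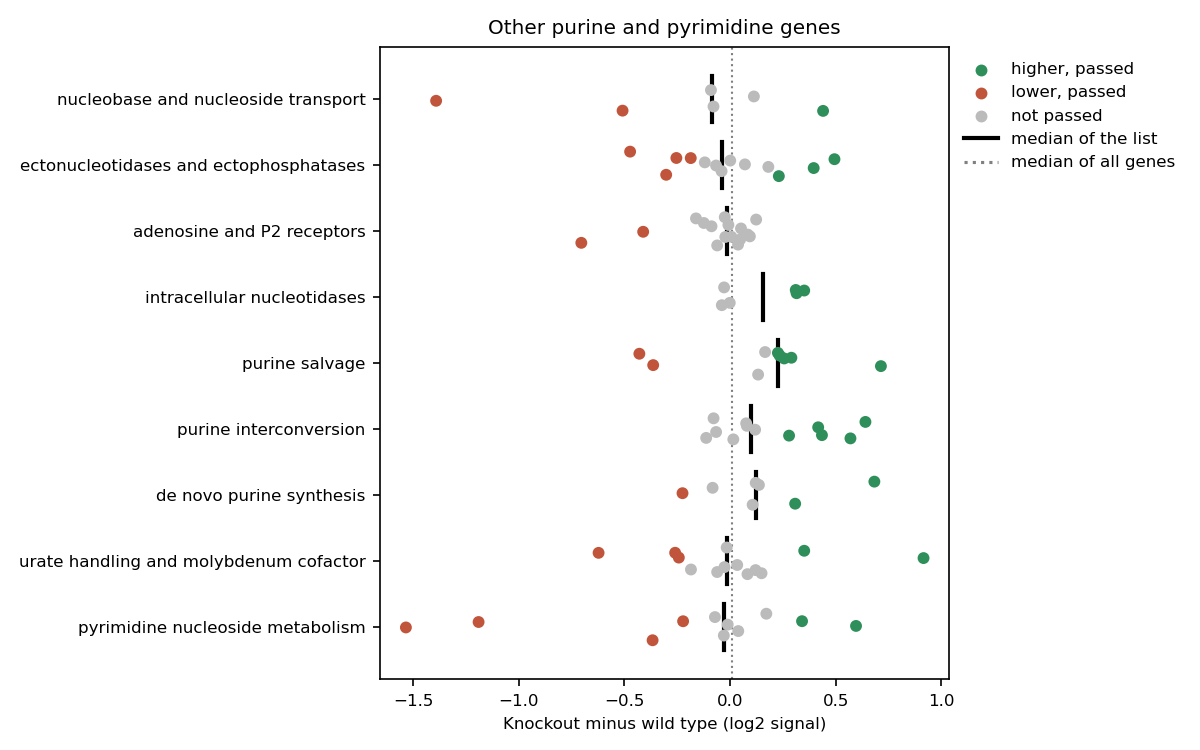
Knockout minus wild type difference (log2 signal, horizontal axis) of each of the 93 measured genes in the 9 lists (rows), coloured by whether it passed the test as higher or lower; black bars are the list medians and the dotted line the median of all genes. The lists of intracellular nucleotidases, salvage, interconversion and de novo synthesis have medians of 0.10 to 0.23, and the largest falls are Upp1, Slc23a4 and Dpyd.

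Among 6 other transporters of nucleosides and bases, 1 rose and 2 fell. Slc23a4, a sodium-dependent nucleobase transporter of the rodent intestine, read 6.67, 6.77, 6.68 and 6.60 in wild type and 5.19, 5.22, 5.43 and 5.32 in the knockout. It fell by 1.39 (SE 0.06, adjusted p = 2.6e-07), with no overlap. Slc28a3, the concentrative transporter of both purine and pyrimidine nucleosides and a relative of Slc28a2, read 5.95, 5.91, 5.80 and 5.71 in wild type and 6.26, 6.45, 6.24 and 6.19 in the knockout. It rose by 0.44 (SE 0.07, adjusted p = 0.000766), against the direction of Slc28a2. Slc43a3, a purine base transporter, fell by 0.51 (SE 0.09, adjusted p = 0.00102).

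Among 13 measured ectonucleotidases and ectophosphatases, which supply Nt5e with AMP or bypass it, 3 rose and 4 fell, with a median of -0.04. The intestinal alkaline phosphatase Alpi fell by 0.47 (SE 0.08), and Entpd2, a surface enzyme that hydrolyses ATP, fell by 0.30 (SE 0.07). Acpp, an acid phosphatase with AMP-hydrolysing activity at the cell surface, rose by 0.49 (SE 0.07), Entpd5 by 0.40 (SE 0.06) and Entpd4 by 0.23 (SE 0.05). Entpd4 and Entpd5 act inside the secretory pathway. Entpd4 no longer passed when its probe sets were averaged (adjusted p = 0.0701). In the same samples mature enterocyte genes, a class to which Alpi belongs, had a median of -0.74. The part of that class in these differences was not tested.

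Of 16 measured receptors for adenosine and extracellular nucleotides, 2 fell and 14 did not pass. P2rx7, the ATP-gated channel of lymphocytes and myeloid cells, fell by 0.41 (SE 0.08, adjusted p = 0.00199), and no longer passed when its probe sets were averaged (adjusted p = 0.058). P2ry10, a lymphocyte receptor, passed as lower but was dim in both genotypes, under 4.58, the median probe set. The T lymphocyte genes given above were lower in the same samples, and their part in these differences was not tested. The adenosine receptor Adora3 had means of 3.49 and 3.46, dimmer than the median probe set, and Adora1, Adora2a and Adora2b were not analysed here.

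Enzymes next to Ada in the cell went in both directions. Pnp, the phosphorylase that splits inosine and guanosine into base and sugar phosphate, read 11.43, 11.47, 11.36 and 11.29 in wild type and 11.05, 10.95, 10.96 and 10.88 in the knockout. It fell by 0.43 (SE 0.06, adjusted p = 0.000189), and Pnp2 fell by 0.36 (SE 0.05). Pnp and Pnp2 are close copies whose probe sets may read each other's transcripts. Of the enzymes that return bases and nucleosides to nucleotides, Hprt rose by 0.26 (SE 0.04), Aprt by 0.29 (SE 0.05) and Dck by 0.24 (SE 0.08), while Dguok did not pass (0.17, adjusted p = 0.0645). The Dck groups overlapped, and its call was lost without wild type 1, 2 or 3 or knockout 3 or 4 (adjusted p 0.0763 to 0.104). The adenosine deaminase-like gene Adal rose by 0.23 (SE 0.05), or by 0.12 averaged over its probe sets. Ahcy, which releases adenosine from S-adenosylhomocysteine, rose by 0.71 (SE 0.05, adjusted p = 3.23e-06). In all 5 of 9 salvage genes rose, 2 fell and 2 did not pass.

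Of 6 intracellular nucleotidases 3 rose and 3 did not pass. Those that rose were Nt5c by 0.32 (SE 0.04), Nt5c3 by 0.35 (SE 0.06; 0.16 averaged over its probe sets) and Nt5c2 by 0.31 (SE 0.05), the last not passing when its probe sets were averaged (adjusted p = 0.0681). Of 12 genes that interconvert purine nucleotides 5 rose and 7 did not pass. The guanylate kinase Guk1 rose by 0.64 (SE 0.06), the adenylate kinase Ak6 by 0.57 (SE 0.07), the GMP synthetase Gmps by 0.44 (SE 0.06), the inosine triphosphatase Itpa by 0.42 (SE 0.07; 0.17 averaged over its probe sets) and the AMP deaminase Ampd3 by 0.28 (SE 0.06). Gmps no longer passed when its probe sets were averaged (adjusted p = 0.156). Of 7 genes of de novo purine synthesis 2 rose, Adsl by 0.68 (SE 0.07) and Gart by 0.31 (SE 0.08), and 1 fell, Prps2 by 0.22 (SE 0.05). The calls of Gart (adjusted p = 0.192) and Prps2 (adjusted p = 0.319) were lost when their probe sets were averaged. The same samples had a median of 0.27 over proliferating crypt genes, whose part in these differences was not tested.

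Around urate, the product of Xdh, 2 of 13 genes rose and 3 fell. Urah, which acts on the product of urate oxidation, read 7.33, 7.31, 7.14 and 7.47 in wild type and 8.24, 8.23, 8.21 and 8.23 in the knockout. It rose by 0.92 (SE 0.06, adjusted p = 4.66e-06), with no overlap. Mocs3, which serves the molybdenum cofactor that Xdh needs, rose by 0.35 (SE 0.05). The apical urate exporter Abcg2 fell by 0.62 (SE 0.06) and the urate transporter Slc2a9 by 0.26 (SE 0.07). The urate oxidase Uox passed as lower but was dim in both genotypes, under 4.58, the median probe set.

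Of the 93 listed genes, the pyrimidine side held the falls of Upp1 and Dpyd. Upp1, the phosphorylase that splits uridine, read 11.15, 10.77, 10.76 and 10.77 in wild type and 9.88, 8.98, 8.91 and 9.56 in the knockout. It fell by 1.53 (SE 0.19, adjusted p = 0.000158), and the knockout samples were more spread than the wild-type ones. Dpyd, which starts the breakdown of uracil and thymine, fell by 1.19 (SE 0.09, adjusted p = 9.46e-06), and its other probe sets differed by -1.15 and, for one dimmer than the median probe set, 0.01, giving -0.78 averaged over the probe sets. Of the kinases that return pyrimidine nucleosides to nucleotides, Tk1 rose by 0.60 (SE 0.05) and Uck2 by 0.34 (SE 0.06), the latter 0.20 averaged over its probe sets. Uck1 (0.17, adjusted p = 0.224) and Uckl1 (-0.03, adjusted p = 0.763) did not pass. Tk2, the mitochondrial thymidine kinase, and Dctd passed as lower while dimmer than the median probe set in both genotypes, and the call of Tk2 was lost without wild type 1, 2 or 4 or knockout 2 or 3 (adjusted p 0.0501 to 0.0688). In all 2 of 11 genes rose and 4 fell.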

How the data were processed

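Ileal RNA from 4 wild-type and 4 Slc51a knockout mice was hybridised to Affymetrix expression arrays, per the labels' protocols. The values are the authors' deposited log2 signals, 1 per probe set, made with RMA according to the submitters' processing notes; its software is not given in the sources used here. Low signals are compressed by RMA, so differences near the floor are understated. No detection calls or array batches were used here. Of 45141 probe sets 104 were controls, and 28898 had 1 platform symbol, 28689 of them updated through RefSeq of GRCm38.p6. Members were matched by the platform's own symbol. A gene was represented by its brightest single-symbol probe set.

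The test between genotypes was 2-sided, by lmFit and eBayes of limma 3.58.1 under R 4.3.3, with Benjamini-Hochberg adjustment over 17097 genes and a threshold of 0.05. SEs of further member probe sets come from a fit of all 45037 probe sets. The labels call the samples biological replicates. The members and lists were chosen with earlier results of these data known. Of 111 listed purine and pyrimidine genes 93 were measured under a single symbol. Named were all members, the adenosine receptors, up to 5 genes past the threshold with the smallest adjusted p per list, and the 5 profiles nearest to Slc28a2 and to Ada; Dck, Dguok, Adal, Tk2, Uck1, Uckl1 and the marker genes were named after their values were seen. The test was first checked on simulated data. Figures were drawn with matplotlib 3.10.9. Alternatives tried were other normalisations, probe set rules, variance models, array weights, thresholds, a fold of at least 1.5, a covariate, the replicate number as a block, a filter on dim genes and leaving out each array.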

Additional observations from a re-analysis of the deposited data

How the results depend on the processing

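The differences of Slc28a2, Ada and Nt5e stayed negative in the 14 alternatives run for members, from -4.15 to -3.92, -2.84 to -2.68 and -2.01 to -0.65. The value farthest from the reported one for Nt5e (-0.65) and for Enpp3 (-0.20) came with the mean of probe sets, which takes in dim probe sets. Cyclic loess moved Adk to -0.19 and Gda to -0.67, a cause not tested. The counts of other purine and pyrimidine genes were 22 to 25 higher and 15 to 18 lower on leaving out 1 array, and among the named genes the calls lost by that were those of Dck (5 of 8 arrays, adjusted p 0.0763 to 0.104) and Tk2 (5 of 8, 0.0501 to 0.0688). Dck also missed the threshold with quantile normalisation (adjusted p = 0.054), cyclic loess (0.0741) and array weights (0.0514). Over all genes leaving out 1 array gave 2493 to 2853 higher and 1873 to 2100 lower. A required fold of at least 1.5 left 351 genes higher and 474 lower, and 5 and 5 of the purine and pyrimidine genes, and a threshold of 0.01 left 1446 lower, both stricter by construction. With the replicate number as a block, 2945 genes were higher and 2245 lower, and 23 and 18 of the purine and pyrimidine genes. Deviations of same-numbered samples had correlations of 0.218, -0.0511, 0.109 and 0.162. Those of differently numbered samples were mostly negative, from -0.164 to 0.179. Deviations within a genotype cancel out for each gene, so positive correlations for some pairs force negative ones for others. A factor shared by number was not tested. The numbers were not taken to pair the mice because the labels do not say that they do. Signal over background limits what can be said of Enpp3, Slc29a1, the adenosine receptors and the knockout level of Slc28a2.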

Other observations

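Probe sets of some purine genes read different amounts. Mtap, which recycles adenine from methylthioadenosine, did not pass by its brightest probe set (0.13, adjusted p = 0.201), whereas 2 dimmer probe sets were at 0.50 and 0.61 (adjusted p = 0.00235 and 0.00181 over all probe sets, limma). The mitochondrial adenylate kinase gene Ak3 was at 0.08 by its brightest probe set and at 0.32 and 0.44 by 2 others (adjusted p = 0.00196 and 0.0105). Gmps was at 0.44 by its brightest probe set and at -0.24 by a second (adjusted p = 0.0362), which lay at 4.46 in wild type, below the median of all probe sets. These genes were singled out after their values were seen.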
